A study of Mus musculus with 14 samples.

Results

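The neural tube progenitor domain factors are 10 transcription factor genes whose products divide the embryonic spinal cord, from ventral to dorsal, into the zones from which its different neurons arise. They were chosen by gene symbol, as *Olig1*, *Olig2*, *Nkx2-2*, *Nkx6-1*, *Nkx6-2*, *Pax6*, *Pax3*, *Pax7*, *Dbx1* and *Irx3*, and each of the 10 was found once among the 23152 loci of the RNA-seq tables, of which 22766 had a symbol through their RefSeq accession. The study followed mouse embryonic stem (ES) cells as they formed motor neurons in embryoid bodies (EBs, floating aggregates of differentiating cells), and compared WT cells with cells lacking *Taf9b*, which encodes a TBP-associated factor found with the core promoter complex TFIID and the coactivator SAGA. RNA-seq covered 11 libraries in 6 tables, 1 library per condition, and ChIP-seq gave 1 list of TAF9B peaks and 1 list of RNA POL2 peaks from WT EB-motor neuron cultures. The WT cultures came from the JM8 clone and the KO cultures from the Taf9b_BG10 clone (genotype TAF9B -/-), so each genotype is a single clone, and both were male C57BL/6 lines kept on mouse embryonic fibroblast feeders. EBs were treated with retinoic acid and the smoothened agonist SAG in both genotypes and collected as ES cells and on days 2, 4 and 6. The newborn tissues were spinal column (the lumbar column with the tissue around the cord, WT and TAF9B -/-) and spinal cord (WT only), both C57BL/6. The ChIP cultures were of another WT line, the HBG3 clone, which carries GFP under the *Mnx1* promoter and was collected later than day 6.

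In the developing spinal cord, Sonic hedgehog released from the notochord and floor plate forms a ventral to dorsal gradient, and retinoic acid comes from the flanking mesoderm. *Nkx2-2*, *Nkx6-1*, *Nkx6-2* and *Olig2* are switched on by hedgehog signalling, whereas *Pax6*, *Irx3*, *Dbx1*, *Pax3* and *Pax7* mark more dorsal territory and are held back by it to different degrees. Pairs of these factors repress each other, which sharpens the borders between domains, and the domain that holds *Olig2* together with *Nkx6-1* gives motor neurons and later oligodendrocyte precursors.

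TAF9B-bound sequence near these genes is shown for 4 regions, because the peaks at *Olig1* and *Olig2* are the ones that lie at a start site outside exons and those at *Nkx6-1* and *Nkx6-2* are the distal ones within 50 kb whose nearest start site is that of the gene itself. All were read from the mm9 genome and are written 5′ to 3′ along the strand of the gene. Capitals mark matches, on either strand, to the E-boxes CAGCTG and CAGATG, the homeodomain core TAATTA, the GLI site GACCACCCA, the CCAAT box and the TATA box (TATAAA), and no capital base belongs to 2 matches. The regions are chr16:91269754-91270013 (plus strand, the part of the *Olig1* peak upstream of the transcript), chr16:91225420-91225711 (plus strand), chr5:102085195-102085419 (minus strand) and chr7:146773907-146774178 (minus strand).
Olig1: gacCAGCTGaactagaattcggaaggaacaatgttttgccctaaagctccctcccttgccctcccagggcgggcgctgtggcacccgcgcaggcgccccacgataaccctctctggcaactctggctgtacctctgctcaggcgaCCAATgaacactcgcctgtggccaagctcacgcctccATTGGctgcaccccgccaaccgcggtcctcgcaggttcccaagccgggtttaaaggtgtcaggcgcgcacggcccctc
Olig2: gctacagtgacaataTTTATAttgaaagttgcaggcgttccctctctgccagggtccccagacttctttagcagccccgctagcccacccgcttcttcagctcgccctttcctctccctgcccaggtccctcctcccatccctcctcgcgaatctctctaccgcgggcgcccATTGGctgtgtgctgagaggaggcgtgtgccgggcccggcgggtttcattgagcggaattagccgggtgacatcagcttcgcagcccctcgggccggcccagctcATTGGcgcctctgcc
Nkx6-1: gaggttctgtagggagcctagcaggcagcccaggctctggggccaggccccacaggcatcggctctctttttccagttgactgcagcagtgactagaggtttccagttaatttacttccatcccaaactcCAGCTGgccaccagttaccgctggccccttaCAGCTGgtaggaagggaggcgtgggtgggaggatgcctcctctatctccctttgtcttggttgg
Nkx6-2: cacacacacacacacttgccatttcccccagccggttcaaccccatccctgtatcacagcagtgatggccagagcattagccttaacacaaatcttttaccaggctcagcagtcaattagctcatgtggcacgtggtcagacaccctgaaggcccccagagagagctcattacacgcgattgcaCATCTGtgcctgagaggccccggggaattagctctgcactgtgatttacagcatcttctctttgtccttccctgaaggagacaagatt
Both promoter-proximal regions carried 2 CCAAT boxes, and the *Nkx6-1* region carried 2 CAGCTG E-boxes. The *Olig1* region held 1 CAGCTG, the *Nkx6-2* region 1 CAGATG (as CATCTG), and the *Olig2* region 1 TATAAA (as TTTATA) near its upstream end. Neither the GLI site nor TAATTA was found in any of the 4. In windows of 200 bp around the midpoints of 10402 TAF9B peaks, CCAAT was present in 32.3%, CAGCTG in 17.2%, CAGATG in 13.2%, TATAAA in 4.31%, TAATTA in 3.17% and GACCACCCA in 0.144%. Of the 9 peaks within 50 kb of a member, the same windows held CCAAT in 4, CAGATG in 2, CAGCTG in 1, and the TATA box, the homeodomain core and the GLI site in 0. The CCAAT and TATAAA motifs were added after these sequences had been seen, and a match is a description of letters, not of a bound factor.

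*Taf9b* itself was read first in every library, and it went against the labels of the cultures. FPKM (fragments per kilobase of transcript scaled to the mapped total) of *Taf9b* was 0.537 in ES cells labelled WT and 3.06 in those labelled KO, 0.516 and 4.08 at day 2, 1.96 and 4.27 at day 4, and 1.37 and 4.01 at day 6. Only the spinal column was lower in the library labelled KO, at 3.31 against 6.65 FPKM, and WT spinal cord was at 7.44 FPKM. In the KO allele a LacZ-Neo cassette stands in place of the coding exons, and because FPKM covers the whole transcript, the tables do not show whether these fragments come from the deleted part. Every direction given here for cultures therefore names the library by its label. The tables hold no read counts, so depth is unknown and no interval can be put on a level, and the loci above 1 FPKM numbered between 11685 and 13645 per library. Each table was normalized separately. The ES cell library labelled WT appears in 2 tables, with values 1.089 times higher beside spinal cord across 11874 genes.

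Under the WT label *Nkx6-1*, *Pax6*, *Dbx1* and *Irx3* were below 1 FPKM at day 2 and above it at day 4, as the plot of levels by stage shows. *Olig2* and *Nkx6-2* were already at 11.4 and 2.64 FPKM at day 2. *Nkx2-2*, *Pax3* and *Pax7* were below 1 FPKM on both days. Of 7 members that exceeded 1 FPKM on one day or both, 6 were more than 2-fold higher at day 4 (15.6% of all 12446 genes) and 1, *Olig1*, was more than 2-fold lower (13.8%). *Nkx6-1*, *Pax6*, *Dbx1* and *Irx3* passed 1 FPKM through day 4 alone, so that for them a difference was built in. These days are in separate tables, between which the median log2 ratio of all genes was 0.09. In bulk RNA, fewer cells of a kind and less RNA per cell cannot be told apart.

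**Figure D1:**
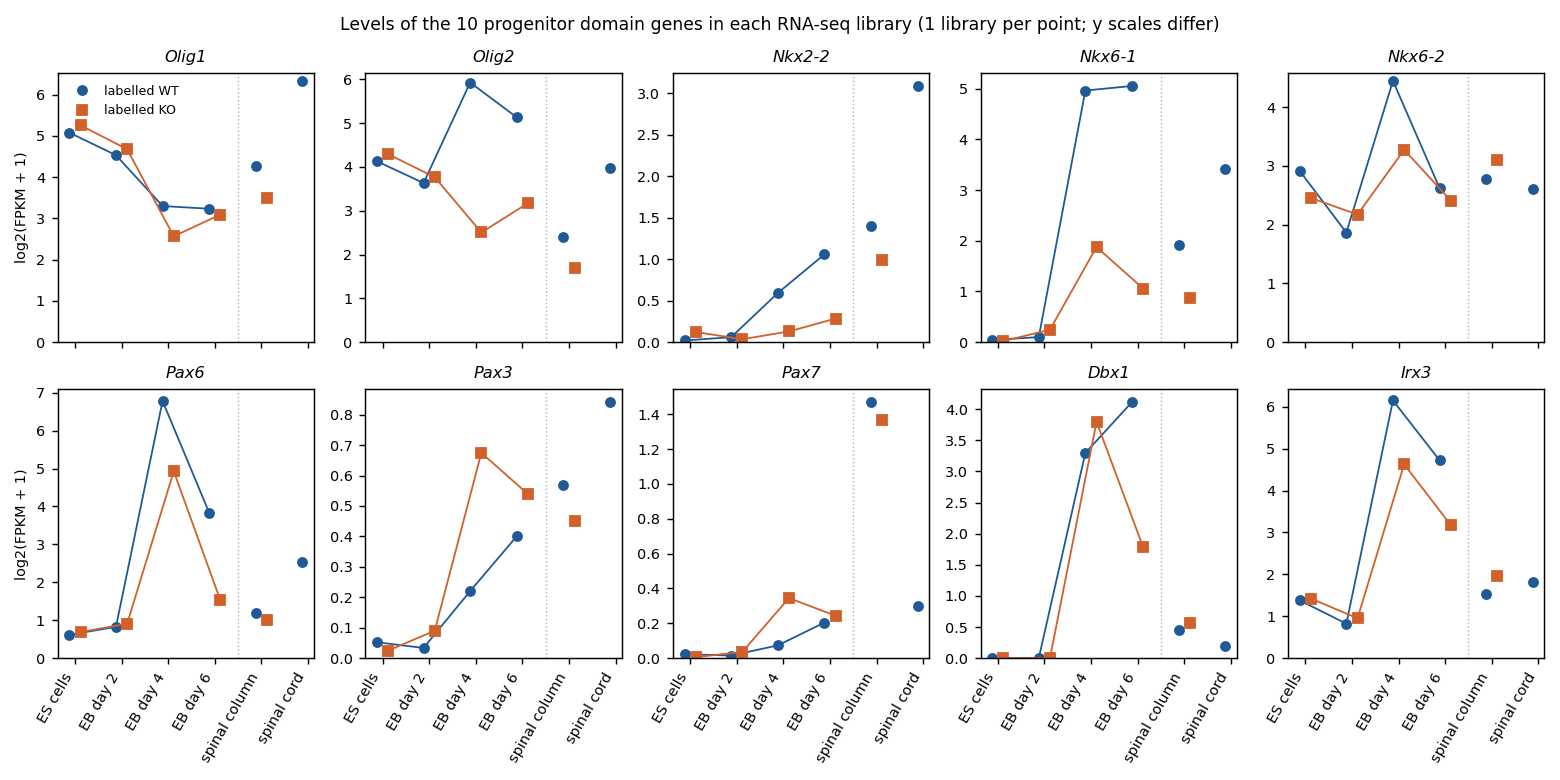
Level of each gene as log2(FPKM + 1) in ES cells, EBs of days 2, 4 and 6, newborn spinal column and newborn spinal cord, with circles for libraries labelled WT and squares for libraries labelled KO; lines join the culture stages, the dotted line separates cultures from tissues, and each point is 1 library. The gap between circles and squares opens at day 4 for *Olig2*, *Nkx6-1*, *Pax6* and *Irx3*, and at day 6 for *Dbx1*.

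Of the motor neuron progenitor factors, *Olig2* (NM_016967, chr16:91225795-91228922, plus strand) had the largest ratio between labels at day 4 among members above 1 FPKM. Under the WT label its level was 16.5 FPKM in ES cells, then 11.4, 59.9 and 34.1 FPKM on days 2, 4 and 6. Libraries labelled KO gave 18.6, 12.6, 4.67 and 8.02 FPKM for the same stages. *Olig2* thus rose 5.27-fold from day 2 to day 4 under the WT label and fell 2.71-fold under the KO label, and the libraries labelled KO were 12.8-fold lower at day 4 (log2 ratio -3.68) and 4.25-fold lower at day 6 (log2 ratio -2.09).

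*Olig1* (NM_016968), its neighbour on chromosome 16, encodes a related basic helix-loop-helix factor of the oligodendrocyte lineage and did not follow it. Its level was 32.7 FPKM in WT-labelled ES cells and then 22.1, 8.83 and 8.39 FPKM on the same days, beside 37.2, 24.5, 4.91 and 7.52 FPKM in the libraries labelled KO. The level went down from ES cells to day 4 under both labels, and KO over WT did not pass 2-fold at any culture stage (log2 ratio -0.85 at day 4, -0.16 at day 6). FPKM is scaled to length, so both genes can be compared: *Olig1* over *Olig2* was 1.98 and 2.00 in ES cells labelled WT and KO, and 1.95 and 1.94 at day 2. At day 4 the ratio was 0.147 in the library labelled WT and 1.05 in the one labelled KO, and at day 6 it was 0.246 and 0.939. In newborn tissue *Olig1* again exceeded *Olig2*, 4.31 and 4.63 times in spinal column labelled WT and KO and 5.38 times in spinal cord.

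*Nkx6-1* (NM_144955, on chromosome 5) is a homeodomain repressor needed for motor neuron and ventral interneuron progenitors. The libraries labelled WT held 0.0295 FPKM in ES cells and 0.0704, 30.2 and 32.2 FPKM on days 2, 4 and 6. In the libraries labelled KO the values were 0.0126, 0.185, 2.67 and 1.08 FPKM. This was the largest difference of the 10 genes at day 6, 29.9-fold lower in the library labelled KO (log2 ratio -4.90), after 11.3-fold lower at day 4 (log2 ratio -3.50). The level held between days 4 and 6 under the WT label and fell 2.48-fold under the KO label.

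*Nkx6-2*, the close relative of *Nkx6-1*, was at 6.52, 2.64, 20.8 and 5.15 FPKM in the 4 culture stages labelled WT and at 4.47, 3.50, 8.67 and 4.31 FPKM in those labelled KO. It was 2.40-fold lower in the library labelled KO at day 4 (log2 ratio -1.26) and within 2-fold at the other stages. Its row is listed under NR_027857, a non-coding RefSeq accession, and how far it reflects the coding transcript was not tested. The row shares a merged locus with *Inpp5a* on the opposite strand. Of the annotated exon bases of *Nkx6-2*, 245 bp or 12.9% lie in exons of both genes. *Inpp5a* ran from 11.6 to 52.2 FPKM over the 11 libraries, and without strand the fragments of both genes cannot be told apart there. At day 4 *Inpp5a* was at 12.5 FPKM with the WT label and 16.8 in the one labelled KO, the opposite order to *Nkx6-2*.

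*Nkx2-2*, the factor of the domain ventral to motor neuron progenitors, stayed low in culture. It was at 0.0135, 0.0414, 0.506 and 1.08 FPKM in the libraries labelled WT and at 0.0876, 0.0243, 0.0929 and 0.217 FPKM in those labelled KO. The day 6 level was 4.99-fold lower in the library labelled KO (log2 ratio -2.32), on values that reach 1 FPKM only under the WT label, and with 1 FPKM added to both values the log2 ratio was -0.77 and no longer past 2-fold. The antisense row that overlaps it, *Nkx2-2os*, did not exceed 0.0643 FPKM.

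*Pax6* and *Irx3* encode homeodomain factors that set the borders of the motor neuron domain, *Irx3* on its dorsal side and *Pax6*, against *Nkx2-2*, on its ventral side. *Pax6* was at 0.533, 0.771, 109 and 13.3 FPKM in the 4 culture stages under the WT label, and at 0.611, 0.876, 29.5 and 1.88 FPKM under the KO label. *Irx3* was at 1.60, 0.769, 70.0 and 25.4 FPKM under the WT label and at 1.68, 0.933, 23.7 and 8.04 FPKM under the KO label. Both peaked at day 4 in both series. *Pax6* was 3.71-fold lower in the library labelled KO at day 4 (log2 ratio -1.89) and 7.04-fold lower at day 6 (log2 ratio -2.81), and *Irx3* was 2.96-fold and 3.16-fold lower (log2 ratios -1.56 and -1.66). Genes on the opposite strand share annotated exon bases with both, *Elp4* 5542 bp or 27.9% of those of *Pax6* and *D230002A01Rik* 124 bp or 5.29% of those of *Irx3*. The limit from fragments without strand, given for *Nkx6-2*, holds there too.

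*Dbx1*, which marks progenitors of commissural interneurons in the intermediate neural tube, behaved differently from the genes above at day 4. It was listed at 0 in ES cells and at day 2 under both labels. The library labelled WT was then at 8.82 FPKM at day 4 and 16.3 at day 6, and the library labelled KO at 12.9 and 2.44 FPKM. The log2 ratio was therefore 0.55 at day 4, within 2-fold, and -2.74 at day 6, 6.69-fold lower in the library labelled KO.

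The dorsal factors *Pax3* and *Pax7*, paired box genes of dorsal progenitors, neural crest and muscle precursors, were barely detected in culture. *Pax3* ran from 0.0235 to 0.320 FPKM in the culture libraries labelled WT and from 0.0173 to 0.596 in those labelled KO. *Pax7* ran from 0.0105 to 0.152 and from 0.00405 to 0.270 FPKM. At day 4 both stood higher in the library labelled KO, *Pax3* at 0.596 against 0.165 FPKM and *Pax7* at 0.270 against 0.0520 FPKM, but neither reached 1 FPKM in any culture, so neither entered the counts. How few fragments such values hold was looked at after the values were seen. Below 0.1 FPKM the commonest ratio of WT to KO values was 0.77 in ES cells and 0.86 at day 2, and relative to it the members' ratios came within 2% of whole-number pairs up to 5 for *Nkx2-2* (1 to 5), *Nkx6-1* (3 to 1) and *Pax7* (5 to 1) in ES cells and for *Nkx2-2* (2 to 1) at day 2. *Pax3* at both stages (2.75 and 0.426) and *Pax7* at day 2 (0.489) were outside that tolerance. The share of such matches over all genes this low was not computed, so how many fragments these ratios rest on remains unknown.

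Counted over the members, differences past 2-fold between labels in culture were found at days 4 and 6 only. *Nkx6-1*, *Pax6* and *Dbx1* were not above 1 FPKM before day 4, and few of all genes were past 2-fold at those earlier stages. The counts therefore do not date when a difference began. In ES cells 4 members were above 1 FPKM and 0 were past 2-fold lower or higher, where 0.591% of all genes were lower and 0.541% higher. At day 2 there were 3 such members and again 0 in either direction, with 1.40% and 1.19% of all genes. At day 4, 5 of 7 members were lower in the library labelled KO (4.43% of all 12543 genes) and 0 higher (12.1%), with a median log2 ratio of -1.56 where all genes had -0.03. At day 6, 6 of 8 were lower (9.93% of 12985) and 0 higher (10.5%), with a median of -2.20 where all genes had 0.00. The plot of ratios by stage sets each gene beside the interquartile range of all genes, which spanned -0.35 to 0.40 at day 4 and -0.40 to 0.40 at day 6. The day 4 count holds for genes above 1 FPKM under both labels, whereas at day 6 *Nkx2-2* passed through the library labelled WT alone.

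**Figure D2:**
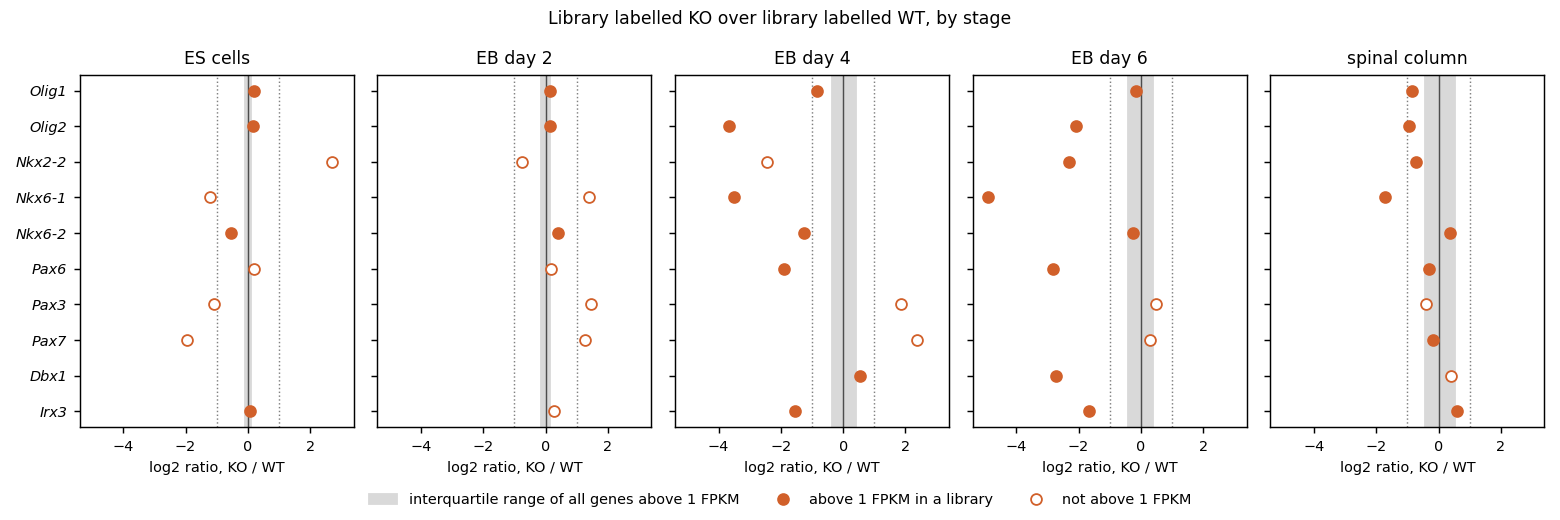
Log2 ratio of KO-labelled over WT-labelled libraries for each gene in ES cells, EBs of days 2, 4 and 6 and newborn spinal column; grey bands span the interquartile range of all genes above 1 FPKM, dotted lines mark 2-fold, filled points are genes that exceeded 1 FPKM under one label or both and open points are not, and genes listed at 0 in both libraries have no point. At day 4 the points of *Olig2* and *Nkx6-1* lie at -3.68 and -3.50 while those of *Pax3*, *Pax7* and *Dbx1* lie to the right of 0.

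From day 2 to day 4 under the KO label, 5 of 7 members were more than 2-fold higher (15.3% of all genes) and 2, both *Olig* genes, were lower (7.76%). *Nkx6-1*, *Pax6*, *Dbx1* and *Irx3* were below 1 FPKM at day 2 under this label too and passed through day 4 alone, so nothing is read from that count of higher genes or from its difference from the one under the WT label. *Pax6* rose 33.6-fold there and 142-fold under the WT label, and *Irx3* rose 25.3-fold and 91.1-fold. From day 4 to day 6 under the WT label, 3 of 8 members were lower (9.92%), namely *Nkx6-2*, *Pax6* and *Irx3*, and 1, *Nkx2-2*, was higher (17.0%), having passed 1 FPKM through day 6 alone. Under the KO label 5 of 7 members were lower (1419 of all 12894 genes, 11%) and 0 higher (12.5%), and these 7 were above 1 FPKM on both days. The 5 were the same 3 genes, among them *Nkx6-2* by 2.01-fold and *Irx3* by 2.94-fold, together with *Nkx6-1* and *Dbx1*. The fall of *Pax6* was 8.25-fold under the WT label and 15.7-fold under the KO label, and *Dbx1* was 1.85-fold higher under the WT label where it was 5.30-fold lower under the KO label. Between these days summed pluripotent cell markers went from 30.1 to 342 FPKM under the WT label and from 180 to 886 under the KO label. The part of such a difference between cultures in the members' steps was not tested.

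Other genes of dorsoventral patterning followed the same direction in part. At day 2, where the members did not differ past 2-fold, 3 of 17 such genes were above 1 FPKM. *Shh*, the ligand itself, was at 1.22 FPKM under the WT label and 0.0793 under the KO label, *Foxa2*, a floor plate and endoderm factor, at 1.79 and 0.125, and the ventral factor *Nkx2-9* at 0.692 and 1.39. Each of these 3 passed 1 FPKM under a single label, so that for them a difference was built in. At day 4, 9 were above 1 FPKM and 5 of these were lower under the KO label (4.43% of all genes) and 1 higher (12.1%), with a median log2 ratio of -1.32. The lowest was *Neurog2*, a proneural factor of the motor neuron domain, at 15.8 FPKM with the WT label and 1.62 in the one labelled KO. The one higher was *Msx2*, a dorsal midline factor downstream of BMP signals, at 0.409 and 2.66 FPKM. *Msx2* passed 1 FPKM through the library labelled KO alone, and *Dbx2*, among the 5 lower, through the one labelled WT alone. At day 6, 5 of 10 were lower (9.93%) and 2 higher (10.5%), with *Neurog2* at 44.3 and 0.219 FPKM and *Msx2* at 2.30 and 9.03 FPKM. The other higher gene was *Nkx2-9*, at 2.36 FPKM under the WT label and 7.46 under the KO label, after 19.6 and 9.80 at day 4. *Neurog2* was among those that passed 1 FPKM at day 6 through the library labelled WT alone.

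Hedgehog pathway genes have products that receive and transmit the signal that sets up these domains. At day 4, 5 of 7 were lower in the library labelled KO (4.43% of all genes) and 0 higher (12.1%), at a median log2 ratio of -1.72. Of these, *Hhip* passed 1 FPKM through the library labelled WT alone. *Gli1*, a transcription factor and target of the pathway, was at 36.4 FPKM with the WT label and 6.94 in the one labelled KO, whereas *Gli3*, the main repressor, was at 12.5 FPKM under the WT label with a log2 ratio of -0.19. At day 6, 3 of 7 were lower (9.93% of all genes) and 0 higher (10.5%), the lowest being *Ptch1*, the hedgehog receptor, at 11.2 and 4.41 FPKM. General neural progenitor genes were lower in 4 of 7 cases at day 4 (4.43% of all genes) and 5 of 7 at day 6 (9.93%). On both days 0 were higher (12.1% and 10.5%). The lowest at day 4 was the Notch target *Hes5*, at 71.0 FPKM under the WT label and 3.61 under the KO label. At day 6 *Hes5* passed 1 FPKM through the library labelled WT alone. *Sox2*, which pluripotent and neural cells share, was at 83.7 and 85.7 FPKM at day 4.

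Markers of other cell types were read under the same labels, and only some of the lists differed past 2-fold. All 5 pluripotent cell markers were more than 2-fold higher in the library labelled KO at day 4 (12.1% of all genes), when their summed level was 30.1 FPKM under the WT label and 180 under the KO label, and 4 of 5 were at day 6 (10.5%), at 342 and 886 FPKM. All 4 genes of the fibroblast list (collagens with *Thy1*) were higher at day 4, at a summed 4.52 and 25.6 FPKM, and 2 of 4 at day 6, at 39.5 and 102 FPKM. *Klf4*, *Col3a1* and *Thy1* passed 1 FPKM at day 4 through the library labelled KO alone. The fibroblast list was chosen for feeder cells but is not particular to them, and it summed to 2996 FPKM in spinal column labelled WT. The 3 simple epithelial keratins were higher on both days, at a summed 50.7 and 311 FPKM at day 4 and 128 and 1057 FPKM at day 6. Motor neuron markers were lower in 5 of 5 cases at day 6 (9.93% of all genes), at a summed 73.4 and 2.99 FPKM, with *Chat* listed at 0 under the KO label. Of these 5, *Mnx1* alone was above 1 FPKM under both labels, and the others passed through the library labelled WT, so that for them a difference was built in. Pan-neuronal genes were lower in 5 of 5 cases too, at 785 and 107 FPKM, with *Elavl3* and *Snap25* passing through the library labelled WT alone. At day 4 the motor neuron markers summed to 3.84 and 6.59 FPKM and only *Mnx1* was above 1 FPKM. Markers of the oligodendrocyte lineage (8.58 and 10.7 FPKM at day 4, 14.1 and 12.2 at day 6) and of astrocytes (7.11 and 4.10, then 6.09 and 5.83) had sums within 2-fold between the labels. Single genes of these lists differed more: *Pdgfra*, of oligodendrocyte precursors and mesenchyme, was at 0.308 and 1.15 FPKM at day 4 and at 1.88 and 5.89 at day 6, *Mbp*, a myelin gene, was at 10.8 and 4.78 FPKM at day 6, and *Slc1a3*, an astrocyte and radial glia transporter, was at 5.59 and 1.60 FPKM at day 4. The mature markers *Mog* and *Aqp4* reached at most 0.115 and 0.0620 FPKM on those days. Muscle markers summed to 2.77 and 4.99 FPKM at day 4 and to 2.21 and 3.24 at day 6. Cartilage and bone markers summed to 9.58 and 28.8 FPKM at day 4, with *Col2a1* given a failed status, and to 13.7 and 10.6 at day 6. The part of these cell types in the levels of the progenitor domain genes was not tested.

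**Figure D3:**
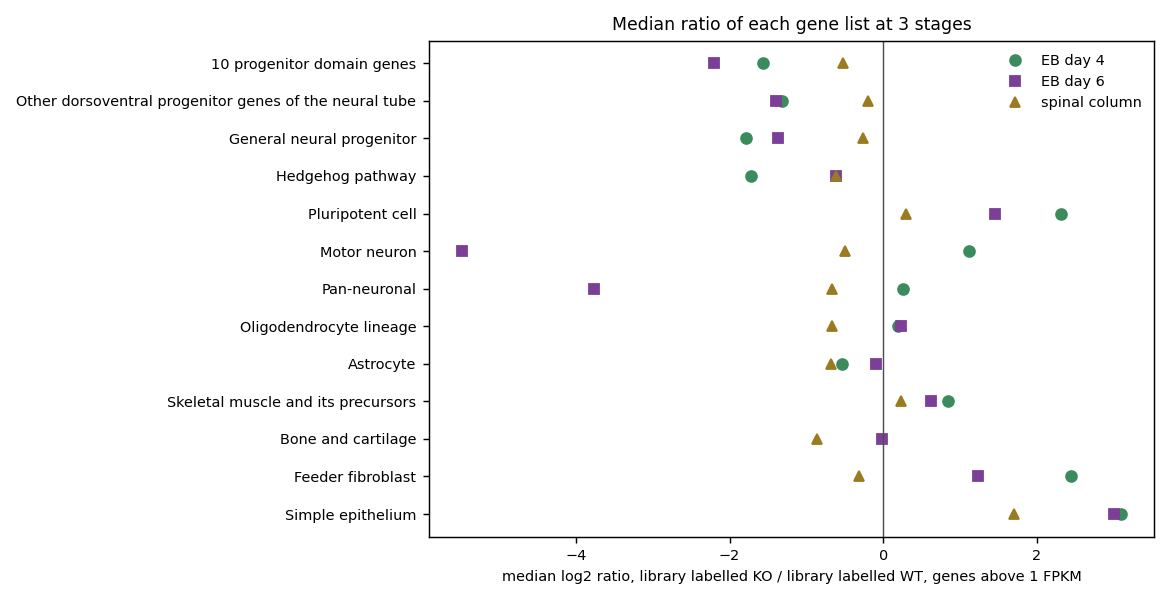
Median log2 ratio of KO-labelled over WT-labelled libraries at day 4 (circles), day 6 (squares) and in newborn spinal column (triangles) for the 10 progenitor domain genes and 12 marker lists, each over its genes above 1 FPKM; a list with no such gene has no point, and the motor neuron median at day 4 is that of *Mnx1* alone. Neural progenitor and hedgehog lists lie left of 0 at both culture days, and pluripotent, fibroblast (plotted as feeder fibroblast) and simple epithelial lists lie right of it.

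In newborn spinal column the differences were smaller. *Nkx6-1* was the only one of 8 members above 1 FPKM that was lower past 2-fold in the library labelled KO (8.51% of all 14194 genes), at 0.838 against 2.77 FPKM (log2 ratio -1.72), and 0 were higher (9.07%). *Olig2*, at 2.21 against 4.24 FPKM, and *Olig1*, at 10.2 against 18.3 FPKM, were 1.92-fold and 1.79-fold lower and thus within 2-fold. *Nkx2-2* was at 0.992 and 1.63 FPKM, *Pax6* at 1.02 and 1.27, and *Pax7* at 1.58 and 1.77 in the libraries labelled KO and WT. *Irx3* (2.87 against 1.90 FPKM) and *Nkx6-2* (7.53 against 5.81 FPKM) lay on the other side, higher in the library labelled KO by 1.51-fold and 1.30-fold. *Pax3* (0.368 and 0.483 FPKM) and *Dbx1* (0.473 and 0.362 FPKM) stayed below 1 FPKM. The median of the 8 was -0.52, where all genes had 0.06. *Nkx2-2* and *Nkx6-1* passed 1 FPKM through the library labelled WT alone.

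Spinal column tissue contains far more than cord. Pan-neuronal genes summed to 704 FPKM in the column labelled WT and 449 in the one labelled KO, where spinal cord had 1559. Astrocyte markers summed to 82.1 and 49.5 FPKM, oligodendrocyte lineage markers to 126 and 97.4, cartilage and bone markers to 204 and 146, and fibroblast collagens with *Thy1* to 2996 and 2171. Muscle genes were present in both columns, the regulator *Myog* at 92.8 FPKM with the WT label and 116 with the KO label and the myosin *Myh3* at 420 and 218 FPKM, where spinal cord had 0.178 and 0.612. The muscle list has no usable sum there, because the authors' software gave *Acta1* and *Myh8* a status of too much data in that table, with *Acta1* listed at 0 under both labels and *Myh8* at 0 and 753 FPKM. How far the share of cord in each column sets the members' levels was not tested.

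In spinal cord *Olig1* led and *Olig2* came next, as in the ES cell and day 2 libraries of both labels and unlike those of days 4 and 6. *Olig1* was at 79.3 FPKM, followed by *Olig2* at 14.7, *Nkx6-1* at 9.66, *Nkx2-2* at 7.50, *Nkx6-2* at 5.10, *Pax6* at 4.77 and *Irx3* at 2.51 FPKM, while *Pax3* (0.793), *Pax7* (0.230) and *Dbx1* (0.146) were below 1 FPKM. With 1 library, neighbours in this order cannot be separated. Against the ES cell library of the same table, 4 of 7 members were higher past 2-fold (30.5% of all 14348 genes) and 0 lower (35.7%), and the median was 1.16 where all genes had -0.26. *Olig1* was 2.23-fold higher, from 35.6 FPKM. *Nkx2-2*, *Nkx6-1* and *Pax6* were at 0.0148, 0.0321 and 0.581 FPKM in ES cells and passed through spinal cord alone, with log2 ratios of 3.07, 3.37 and 1.87 after 1 FPKM was added to both values. *Olig2* stood at 18.0 FPKM in ES cells and so within 2-fold of spinal cord. *Nkx2-2* and *Olig1* were the members at their highest in spinal cord among those above 1 FPKM, and *Pax7* was highest in the spinal column, at 1.77 FPKM in the library labelled WT, where *Myod1* was at 25.1 FPKM.

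Across the 11 libraries, the patterns of *Irx3*, *Dbx1* and *Pax6* were the most alike among the members, with Pearson's r of log2(FPKM + 1) of 0.94 for *Irx3* with *Pax6*, 0.94 with *Dbx1* and 0.85 for *Pax6* with *Dbx1*. *Olig1* and *Olig2* had an r of 0.15. These libraries share stages and labels, so r is only a measure of likeness. Among the 12353 genes above 5 FPKM in a library, those outside the 10 most like *Pax6* were *Crb2* (0.994), *Obi1* (0.979) and *Foxb1* (0.968). *Nkx6-1* came closest to *Mir124-2hg* (0.980), *Hoxd3* (0.978) and *Pou3f2* (0.972), and *Irx3* to *Hoxd4* (0.971), *Tmem33* (0.966) and *Peg12* (0.966). *Dbx1* came closest to *Hoxc5* (0.988), *Hoxb1* (0.966) and *Igdcc3* (0.962). *Hoxc5* shared with *Dbx1* the higher level under the KO label at day 4, 19.4 against 11.6 FPKM, and the lower one at day 6, 4.61 against 58.5 FPKM. For *Nkx2-2* these were *2810029C07Rik* (0.995), *Ss18l1* (0.992) and *Bhlhe22* (0.987), and for *Nkx6-2* *Irf8* (0.919), *Chsy1* (0.908) and *Maob* (0.904). The nearest genes to *Olig2* (*Htatsf1*, *Sfswap* and *Pced1a*, 0.881 to 0.906) and to *Olig1* (*Slc7a14*, *Wrnip1* and *Ttpa*, 0.890 to 0.925) included some that varied little, *Htatsf1* between 11.8 and 23.6 FPKM and *Wrnip1* between 12.6 and 19.2 FPKM.

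TAF9B binding was then examined around each gene, in EB-motor neurons that were not part of the RNA-seq series. A TAF9B peak midpoint lay within 50 kb of a start site for 8 of 10 members (55.3% of 19069 genes), a POL2 peak for 4 of 10 (56.8%). Counting only TAF9B peaks whose nearest start site is that of the gene itself left 5 of 10 (28.3%). TAF9B lay within 500 bp of a start site for 3 of 10, *Olig1*, *Olig2* and *Pax6* (20.0% of all genes), and POL2 for 3 of 10, *Olig2*, *Nkx6-1* and *Pax6* (33.0%). *Pax3* and *Dbx1* had neither peak within 100 kb. The 8 genes with TAF9B held 9 different peaks, of which 2 overlapped a POL2 peak (33.3% of all 10415 TAF9B peaks). With 1 ChIP library for each factor and no IgG peaks analysed here, these shares are descriptions.

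**Figure D4:**
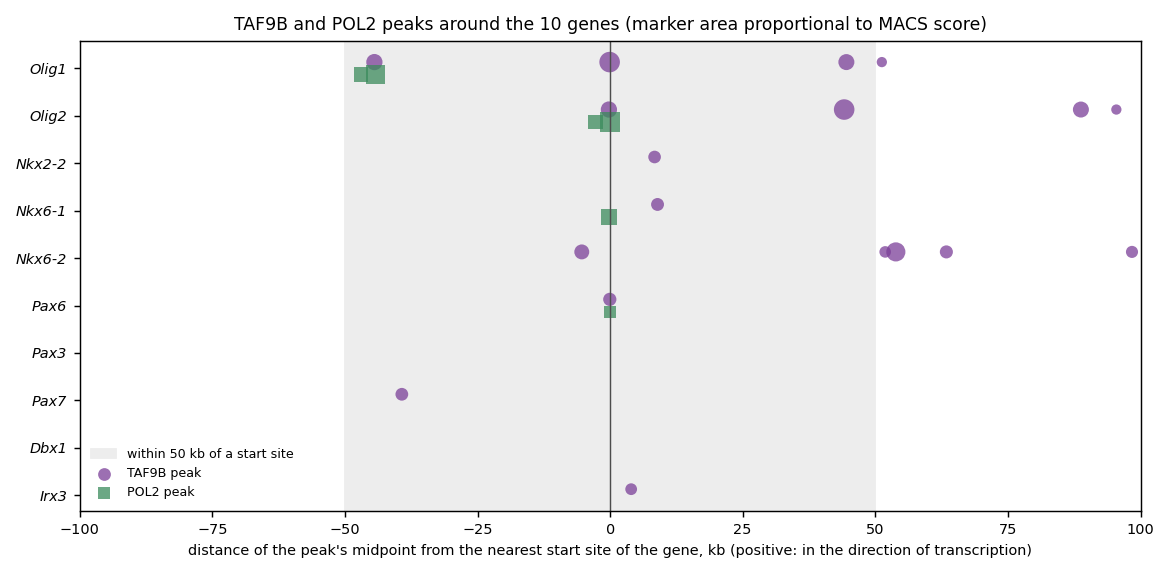
Distance in kb of the midpoint of each TAF9B peak (circles) and POL2 peak (squares) from the nearest start site of each gene, positive in the direction of transcription, with marker area proportional to the MACS score and the 50 kb window in grey. *Olig1* carries the TAF9B peak of highest score at its start site without POL2, *Olig2* and *Pax6* carry both there, and *Nkx6-1* carries POL2 there with TAF9B 8.94 kb downstream.

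The *Olig* locus on chromosome 16 held the TAF9B peaks of highest score within 50 kb of a member. At *Olig1* the peak whose sequence is shown above, chr16:91269754-91270087, had its midpoint 94 bp upstream of the start site and a score of 216, above 92.6% of TAF9B peaks, and no POL2 peak overlapped it. At *Olig2* the peak at chr16:91225420-91225711 lay 230 bp upstream with a score of 135 and inside a POL2 peak of score 194, and a further POL2 peak of score 110 lay 2.78 kb upstream. Another TAF9B peak of score 131 lay 44.5 kb downstream of *Olig1*. Because the start sites of both genes are about as far apart as the window is wide, each gene's peak counts for its neighbour too, 44.4 kb upstream of *Olig1* and 44.1 kb downstream of *Olig2*.

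At *Pax6* a TAF9B peak of score 89.4 lay 64 bp upstream of an internal start site, one of 21 annotated for the gene, within a 5′ UTR exon of other transcripts, and it overlapped a POL2 peak of score 71.9. *Nkx6-1* had its TAF9B peak between genes, 8.94 kb downstream of its start site, with a score of 85.1, and a POL2 peak of score 128 at 148 bp upstream. The *Nkx6-2* peak, of score 114, lay 5.35 kb upstream between genes, and 4 more TAF9B peaks lay 51.9 to 98.4 kb downstream, outside the window, in introns of *Inpp5a*. The highest of these, 53.9 kb downstream and with *Nkx6-2* as its nearest start site, had a score of 187, above 88.9% of TAF9B peaks. *Nkx2-2* had a peak of score 81.6 in its last annotated exon, 8.38 kb from the start site, *Irx3* one of score 70.7 at 3.97 kb downstream, and *Pax7* one of score 83.2 at 39.3 kb upstream. The peaks of *Nkx2-2*, *Irx3* and *Pax7* were nearer to the start site of another annotated gene, none overlapped POL2, and their scores lay below the list median of 83.3.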

How the data were processed

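RNA-seq values are the FPKM that the authors deposited, made by them from poly-A libraries mapped to RefSeq genes (build mm9) with TopHat and Cuffdiff; versions and options are not given in the sources used here. Those tables also hold the authors' Cuffdiff log2 fold changes and p-values, which were not used. Peak scores are those of MACS, as the authors deposited them after Bowtie mapping to mm9. IgG reads were not analysed here.

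Symbols came from RefSeq accessions, start sites and exons from GENCODE vM1 (at least 1 end of 73.7% of the 23152 loci matched a transcript end), and sequences from the mm9 genome. Starts are 1-based. Log2 ratios were taken without a pseudocount. A gene was counted when above 1 FPKM in at least 1 library without a failed Cuffdiff status, and as lower or higher when past 2-fold, a 0 on 1 side included. With 1 library per condition no test was made and no p-value computed. Peaks were placed by their midpoint, at a start site when within 500 bp, near it when within 50 kb, and overlap was at least 1 bp. The genes named are the 10 members, *Taf9b*, list genes with the highest or lowest ratio, and for each member above 5 FPKM the 3 genes with the highest Pearson r; other list genes named (*Sox2*, *Shh*, *Foxa2*, *Col2a1* and single markers at or near 0, *Mnx1*, *Chat*, *Mog*, *Aqp4*, *Pdgfra*, *Mbp*, *Slc1a3*, *Myog*, *Myh3*, *Myod1*, *Acta1*, *Myh8*) and *Inpp5a*, *Elp4*, *D230002A01Rik*, *Nkx2-2os* were chosen after their values were seen. Members, lists and alternatives were chosen with earlier results of these data known. Counting was tested on simulated data. Alternatives were the floor, the fold, a pseudocount, centring, the peak window and the score. Software was Python 3.11.15, numpy 2.4.6, pandas 2.3.3 and matplotlib 3.10.9.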

Additional observations from a re-analysis of the deposited data

Results flagged for a closer look

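The direction of 2 members differed between stages. *Dbx1*, at 8.82 FPKM with the WT label and 12.9 in the one labelled KO at day 4, had a log2 ratio of 0.55 there and -2.74 at day 6. *Irx3* had a log2 ratio of 0.59 in newborn spinal column, at 2.87 FPKM in the library labelled KO and 1.90 in the one labelled WT, whereas its ratio was -1.56 at day 4 and -1.66 at day 6. With 1 library on each side the difference between stages was not tested, and the limit of 0.5 on the log2 scale that singled these genes out was set after the values were seen.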

How the results depend on the processing

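Of 93 values recomputed under alternatives, 80 stayed within 1.5 times of the reported one and 13 moved, and none that was past 2-fold changed direction. Without the floor of 1 FPKM, the members past 2-fold numbered 4 in ES cells (3 lower and 1 higher under the KO label), 3 at day 2 (0 lower), 8 at day 4 (6 lower and 2 higher) and 7 in spinal cord over ES cells, whose median log2 ratio became 3.39; these additions are genes that stay at or below 1 FPKM. A fold of 4 left 2 members at day 4, *Olig2* and *Nkx6-1*, and 0 in spinal column. In spinal column a floor of 5 FPKM left 0, a fold of 1.5 gave 5 (4 lower and 1 higher) and centring on the median of all genes gave 2. The share of all genes under each alternative was not computed, so nothing is read from these counts about the members. The interquartile range of all genes in spinal column was -0.43 to 0.52 on the log2 scale. With only peaks nearest to the member's own start site, or only those scoring above the list median, 5 members had TAF9B within 50 kb, and 2 had POL2 above the median score. TAF9B lay at a start site for 4 members instead of 3 under the widest distance tried, and the count of overlaps with POL2 was 2 under both alternatives. No paired analysis was possible because every group is 1 library and the labels carry no replicate numbers. Leaving out a library was not possible for the same reason. Depth is unknown, each genotype is 1 clone in culture, and *Taf9b* was higher in the culture libraries labelled KO, so a difference between labels cannot be told apart from one between clones or libraries.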
